A study of Mus musculus with 18 samples.

Results

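The tumors described here received extracellular vesicles (EVs) that carried no STING agonist, and they were compared with tumors given PBS. The comparison takes the 2 tumors labelled as unloaded EVs after 1 dose and the 2 labelled as PBS after 1 dose, which makes 4 of the 18 tumors of the series. The series asked how a cyclic dinucleotide (CDN) agonist of STING acts when loaded into EVs. Unloaded EVs are its control for the vesicle itself, and the question is what the vesicle alone did to interferon genes and to the markers of each cell type, and how large a change the data could have missed.

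Every group was made of subcutaneous B16F10 tumors, a mouse melanoma line, grown in female C57BL/6 mice and injected IT (intratumorally). The EVs came from HEK293 cells, a human embryonic kidney line, engineered to overexpress the surface protein PTGFRN, and the labels do not give the amount injected. The groups used for scale were exoCDN2, the same kind of EV loaded with 0.1 µg of CDN2 and given as 1 dose, free CDN2 given as 1 dose of 20 µg, and PBS given as 2 doses 3 days apart. All tumors were taken 24 h after the last dose, and each of these groups held 2 tumors. No group received unloaded EVs for 2 doses. RNA came from whole tumors, so fewer cells of a type and less RNA per cell cannot be told apart.

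STING is a sensor in the cytosol that binds cyclic dinucleotides and switches on TBK1 and IRF3, which drive transcription of interferon beta. Type I interferons act on promoters that carry the interferon-stimulated response element (ISRE), while interferon gamma, made by activated T cells and NK cells, acts on the gamma-activated site (GAS). Macrophages and dendritic cells take up injected vesicles readily and are rich in STING.

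The total expected counts were 43549581 and 48388504 for the PBS tumors and 43951252 and 38671428 for EV tumors 1 and 2. The EV tumors differed from each other over 2-fold at 10.4% of the genes with reads in both, and the PBS tumors at 5.53%. Melanocyte genes checked the labelled tissue. Dct, a melanin enzyme, lay at 6791 and 6457 CPM (counts scaled to a common library total) in the PBS tumors and at 6996 and 6643 CPM in the EV tumors, and the 12 melanocyte markers summed to between 23040 and 25250 CPM in all 4 tumors.

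Promoters of 4 interferon-induced genes are shown so that the elements named above can be seen in genes described below. Irgm2, Igtp and Irf1 are the gamma-induced genes with a GAS that had the smallest p-values, and Ifit1 stands for the type I genes. Each run is the 250 bases before the RefSeq start of the gene on GRCm38.p6, plus strand, with capitals for matches to GAS (TTCNNNGAA, which is its own reverse complement) or to ISRE (GAAA, any 2 bases and GAAA, or on the other strand TTTC, any 2 bases and TTTC).
Irgm2, chr11:58214727-58214976: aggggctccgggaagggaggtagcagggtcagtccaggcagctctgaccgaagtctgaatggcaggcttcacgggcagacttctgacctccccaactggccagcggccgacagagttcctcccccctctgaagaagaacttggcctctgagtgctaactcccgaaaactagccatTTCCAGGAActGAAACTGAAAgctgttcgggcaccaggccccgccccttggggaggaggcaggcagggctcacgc
Igtp, chr11:58199306-58199555: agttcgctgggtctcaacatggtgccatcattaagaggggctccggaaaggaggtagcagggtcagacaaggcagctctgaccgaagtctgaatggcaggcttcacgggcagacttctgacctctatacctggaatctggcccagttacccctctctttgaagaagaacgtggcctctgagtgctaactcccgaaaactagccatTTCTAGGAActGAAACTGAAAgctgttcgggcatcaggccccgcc
Irf1, chr11:53769764-53770013: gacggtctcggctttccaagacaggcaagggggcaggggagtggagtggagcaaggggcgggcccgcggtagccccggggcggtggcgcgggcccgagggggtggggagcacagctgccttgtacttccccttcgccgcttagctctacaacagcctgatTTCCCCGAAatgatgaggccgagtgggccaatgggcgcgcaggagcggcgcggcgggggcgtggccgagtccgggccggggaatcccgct
Ifit1, chr19:34640639-34640888: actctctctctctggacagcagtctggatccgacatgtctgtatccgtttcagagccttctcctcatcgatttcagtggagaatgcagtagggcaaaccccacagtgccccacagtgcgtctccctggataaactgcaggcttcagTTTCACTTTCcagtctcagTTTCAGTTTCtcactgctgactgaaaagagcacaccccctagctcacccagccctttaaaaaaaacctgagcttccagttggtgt

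The Irgm2 and Igtp windows also hold an ISRE just after the GAS, the Irf1 window holds none, and the Ifit1 window holds a pair of ISREs and no GAS. Over all 27025 genes with RefSeq promoters, 8.13% held a GAS and 3.46% an ISRE in a window of this length, counting a match in any promoter of the gene. Of the 19 interferon gamma-induced genes listed, 15 were matched, and 46.7% of them held a GAS and 60% an ISRE. Of the 40 type I interferon-stimulated genes, 30 were matched, and 16.7% held a GAS and 36.7% an ISRE. These are matches of letters, not binding sites.

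A gene was called when its ratio was over 2 and its adjusted p under 0.05, and by this rule edgeR (quasi-likelihood test, Benjamini-Hochberg) called 0 of the 16927 genes tested between unloaded EVs and PBS (0%), with 0.381 as the smallest adjusted p. At an unadjusted p under 0.05 there were 540 genes, 232 higher (1.37% of all genes) and 308 lower (1.82%). This threshold passes 846.4 genes when nothing changes. Fitted to the 4 tumors alone, edgeR put 1851 genes under this threshold, from a smaller tested set. It again called 0, with 0.235 as the smallest adjusted p. The 540 on 16 tumors thus depended on the tumors fitted, and a count under 846.4 does not show that nothing changed. Why the counts differed was not tested. DESeq2, the tool the study used, called 34 genes (0.209% of those it tested) on the same 16 tumors, 6 higher (0.0369%) and 28 lower (0.172%). It called 69 when fitted to the 4 tumors alone, and edgeR without its filter on low counts called 227. Genes at an unadjusted p under 0.05 by DESeq2 numbered 585 on the 16 tumors and 1522 on the 4. The calls of DESeq2 depended on each of the 4 tumors. Leaving out either PBS tumor left 0 calls. Without EV tumor 1 there were 48, of which 8 were among the 34, and without EV tumor 2 there were 86, of which 25 were among the 34.

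How large a change the 4 tumors could have missed is set by the 95% interval of each gene's fold change. The interval holds gene by gene, not for all genes at once. Its spread was estimated within all 8 groups fitted (16 tumors), not from these 4 tumors alone. Between the 2 tumors of a group, the share of genes over 2-fold apart ran from 5.53% (PBS, 1 dose) to 27% (free CDN2, 2 doses of 20 µg). The whole interval lay within 2-fold in either direction for 10570 genes (62.4%), within 1.5-fold for 36.6% and within 4-fold for 85.3%. A rise of 2-fold lay outside the interval of 72.8% of genes and a rise of 4-fold outside that of 90.1%. For a fall the shares were 74.7% at 2-fold and 91.8% at 4-fold. The share with a narrow interval rose with expression level up to 128 CPM. Among genes with a mean under 1 CPM only 2.62% had an interval within 2-fold, against 26.3% between 1 and 2 CPM, 56.4% between 2 and 8 CPM, 86.5% between 8 and 32 CPM and 93.8% between 32 and 128 CPM. For 135 genes a group held no reads and no interval could be given.

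**Figure D1:**
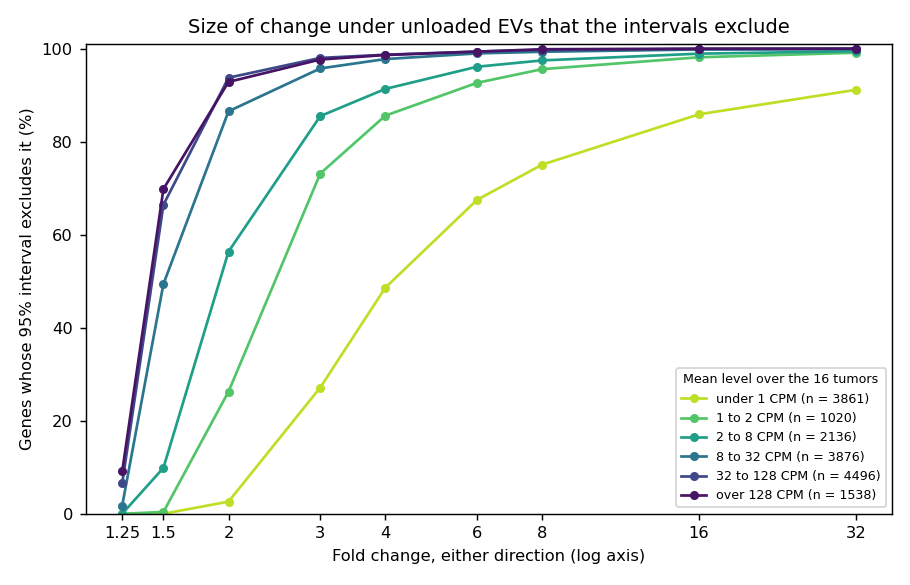
The share of genes (y axis, %) whose 95% interval for unloaded EVs against PBS excludes a change of the size on the x axis (fold, either direction, log axis), with 1 line for each range of mean expression in CPM. At 2-fold the lines run from 2.62% for genes under 1 CPM to 93.8% for genes between 32 and 128 CPM.

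The interferon beta gene itself, Ifnb1, was near the limit of detection, with 6 and 6 counts in the PBS tumors and 12 and 3 in the EV tumors, and its interval reached up to 15.8-fold higher. With so few counts and EV tumors that differed, these data could not show or exclude an induction of Ifnb1 up to that size. The exoCDN2 tumors held 24.1 and 20.1 CPM. Ifna2, Ifna4 and Ifnl2 had no reads in any of the 4 tumors. The receptor genes Ifnar1 (log2 fold change 0.09 ± 0.15, SE) and Ifngr1 (0.10 ± 0.17) were measured more closely, with upper bounds of 1.34-fold and 1.38-fold.

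The genes that type I interferon induces were measured more closely. Ifit1 (chr19:34640871-34650009), which binds viral RNA, lay at 28.2 and 27.6 CPM in the PBS tumors and at 55.9 and 14.5 CPM in EV tumors 1 and 2. The EV tumors thus stood on either side of the PBS tumors, and the log2 fold change was 0.34 ± 0.47 (SE). Mx1, an antiviral GTPase, gave 6.73 and 7.32 CPM under PBS and 14.5 and 4.79 CPM under EVs. The radical enzyme Rsad2 was at 105 and 89.2 CPM under PBS, and at 140.9 and 53.4 CPM in the EV tumors. For these genes EV tumor 1 was the higher of its pair in each case, and neither group lay wholly above the other. Without EV tumor 1 their log2 fold changes turned to -0.95, -0.55 and -0.86, and that of Rsad2 was also below 0 without PBS tumor 2. This was the less common pattern, since EV tumor 1 lay above both PBS tumors in 8 of 40 type I genes and below both in 31. Isg15, a ubiquitin-like protein, had the commoner pattern, with both EV tumors below both PBS tumors. It was at 30.8 and 31.7 CPM under PBS and 25.6 and 18.8 CPM under EVs.

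Over the whole list of 40 type I genes, 8 were higher and 32 lower (50.2% and 49.6% of all genes), with a median log2 fold change of -0.47 beside 0.00066 for all genes tested. At an unadjusted p under 0.05, 1 was higher (Oasl1, an antiviral oligoadenylate synthetase-like gene) and 17 were lower. Oasl1 too rested on EV tumor 1, without which its log2 fold change was -0.024. In 29 of the 40 both EV tumors lay below both PBS tumors, where 23.3% of all genes did so. A 4-fold rise lay outside the interval for all 40 genes and a 2-fold rise for 36. The exceptions at 2-fold were Oasl1, Slfn5, Mx1 and Ifit1, whose upper bounds were 3.35-fold, 2.81-fold, 2.64-fold and 2.58-fold. Oasl2, a close relative of Oasl1 with which it can share reads, was lower, at 37.3 and 36.2 CPM under PBS and 16.8 and 19.7 CPM under EVs (log2 fold change -1.01 ± 0.18, adjusted p = 0.381 by edgeR, 0.000889 by DESeq2).

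**Figure D2:**
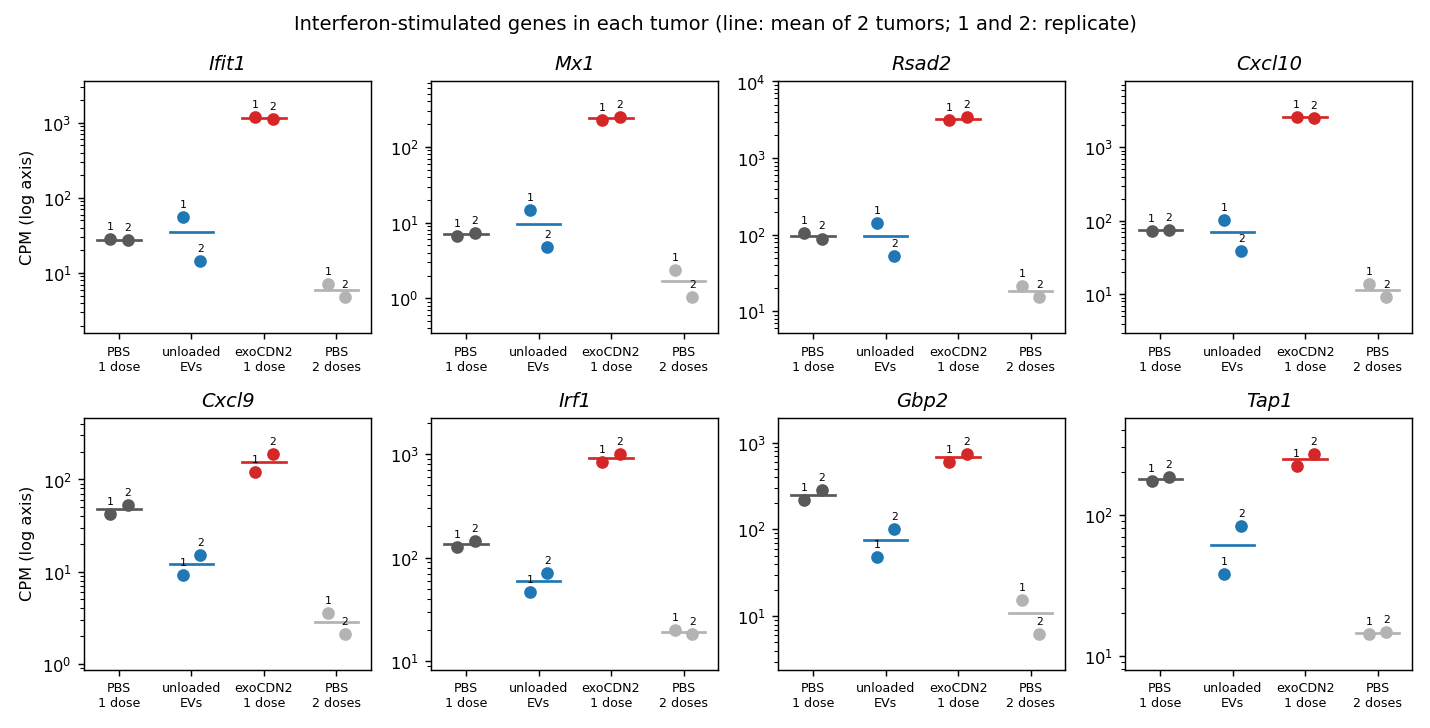
CPM (log axis) of 8 interferon-induced genes in each tumor of 4 groups, numbered by replicate, with a line at the mean of the 2 tumors. In the upper row EV tumor 1 lies above and EV tumor 2 below the PBS tumors of 1 dose, while in the lower row both EV tumors lie below them and above the PBS tumors of 2 doses. The upper row is not typical, as EV tumor 1 lay above both PBS tumors of 1 dose in 8 of the 40 type I genes.

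Loading the same kind of vesicle with CDN2 gave the scale of an interferon response in this assay. When exoCDN2 tumors were tested directly against EV tumors, 53 of the 59 genes of both interferon lists were called higher by edgeR (2.52% of all genes) and 0 lower (0.425%), with a median of 9.11-fold. Ifit1 was 32.9-fold higher in loaded than in unloaded EV tumors (adjusted p = 0.00024) and Usp18, the enzyme that removes Isg15 from proteins, 26.6-fold. The 6 genes not called were Bst2, Ciita, Epsti1, Ido1, Irf8 and Serpina3g. The scale depended on the group compared. Median log2 fold changes of exoCDN2 against unloaded EVs were 3.19 for type I and 3.17 for gamma-induced genes. Against PBS they were 2.77 and 1.71. Against the PBS tumors, which both comparisons share, Ifit1 was 41.6-fold higher with exoCDN2 (95% interval 20.5 to 84.6) and 46.1-fold higher with free CDN2, whereas with unloaded EVs its interval ran from 0.619-fold to 2.58-fold. For Rsad2 the values were 33.8-fold with exoCDN2 and 49.0-fold with CDN2, and its interval with unloaded EVs ended at 1.72-fold.

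**Figure D3:**
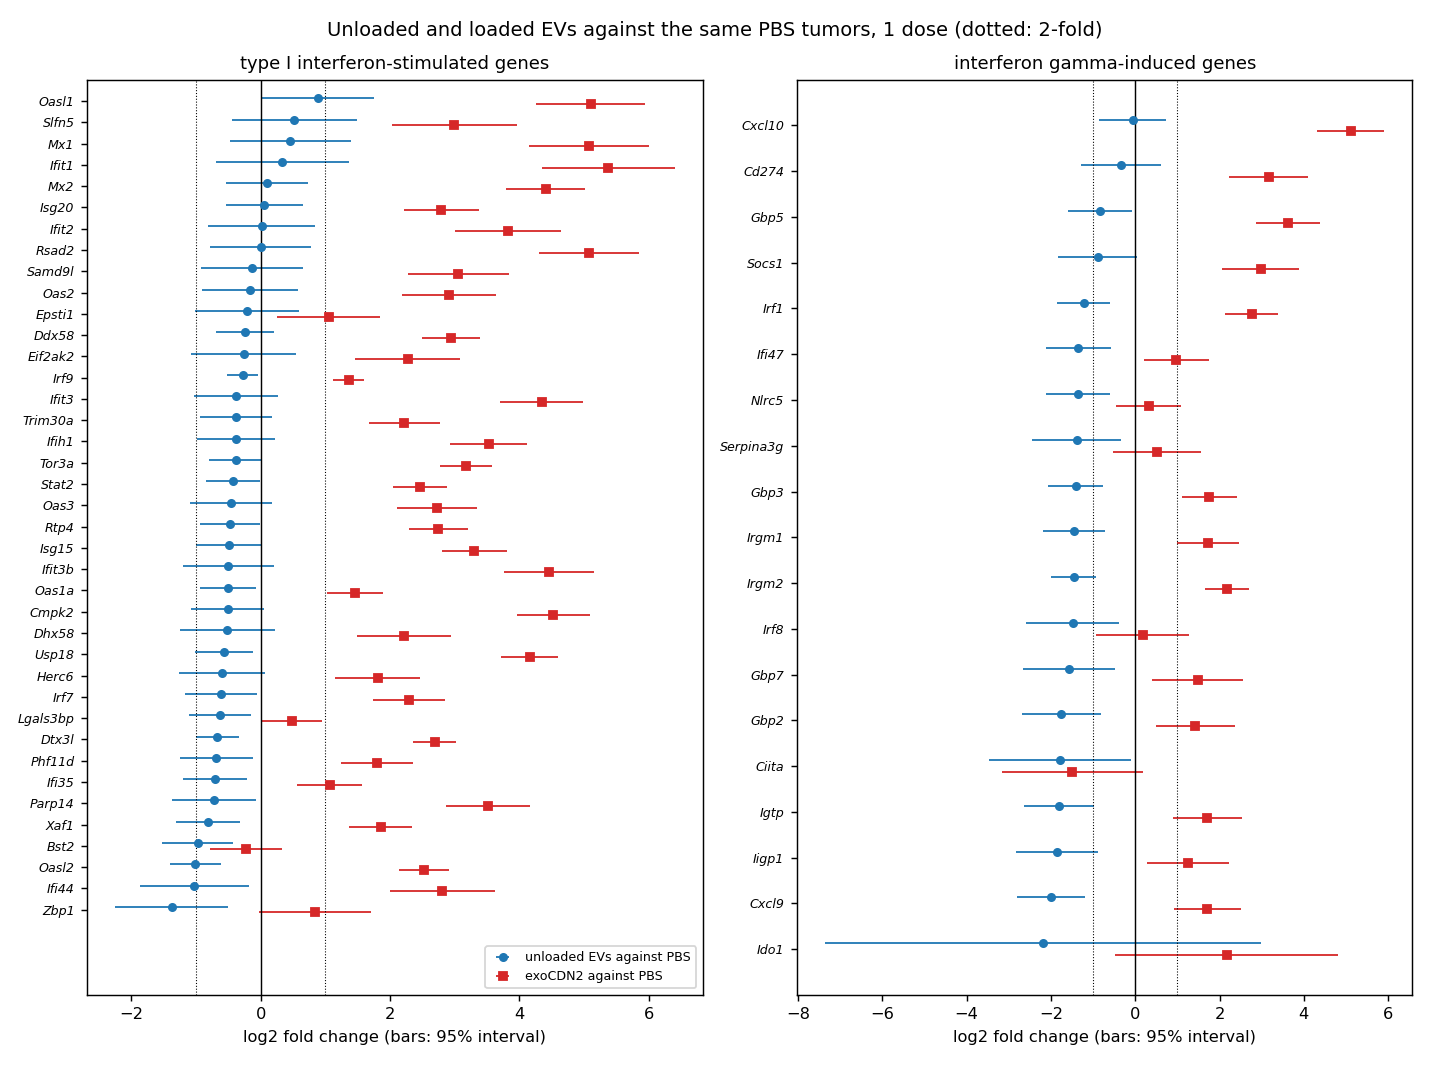
Log2 fold changes against the same PBS tumors, with 95% intervals, of unloaded EVs (blue circles) and exoCDN2 (red squares) for the type I genes (1 of the 40 is not drawn) and 19 interferon gamma-induced genes, ordered by the value of unloaded EVs. Dotted lines mark 2-fold. For unloaded EVs the type I genes centre on -0.47 and the gamma-induced genes on -1.45.

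Genes induced by interferon gamma were lower, not higher, in the EV tumors, although edgeR called 0 of them. All 19 listed had a log2 fold change below 0 (49.6% of all genes did), the median was -1.45, and in 18 of the 19 both EV tumors lay below both PBS tumors (23.3% of all genes). Unadjusted p-values were under 0.05 for 15, all lower (1.82% of all genes). DESeq2 called 8 of the 19 lower (0.172% of the genes it tested), which were Cxcl9, Gbp2, Gbp3, Igtp, Iigp1, Irf1, Irgm1 and Irgm2. Many of these are GTPases of the Gbp and Irg families, which guard against pathogens inside the cell. Members of a family resemble one another and may share reads, which was not tested.

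Cxcl9 (chr5:92321347-92328079), the chemokine that draws CXCR3-bearing T cells, was at 42.3 and 53.4 CPM under PBS and at 9.14 and 14.99 CPM under EVs. The groups did not overlap, and the fold was 3.97 lower (95% interval 2.27 to 6.94). Its adjusted p was 0.428 by edgeR and 0.00088 by DESeq2. Irf1 (chr11:53770014-53778374), a transcription factor that relays the interferon gamma signal, gave 127.6 and 146.2 CPM under PBS and 46.1 and 71.6 CPM under EVs, which is 2.33-fold lower (1.51 to 3.59). Irgm2 (chr11:58199618-58222782), at the promoter shown above, had the smallest adjusted p of DESeq2 at 0.000294. It lay at 117.5 and 122.5 CPM under PBS and at 36.8 and 50.3 CPM under EVs, a log2 fold change of -1.46 ± 0.24 (SE). Igtp was at 203.4 and 240.6 CPM under PBS and 40.5 and 86.8 CPM under EVs. Its GENCODE span (chr11:58199556-58207591) overlaps that of Irgm2, and whether reads of the pair were fully separated was not tested. The Irgm2 window shown above lies within the span of Irgm2. Not every gene of the list followed. Cxcl10, which both types of interferon induce, gave 72.2 and 76.0 CPM under PBS and 103.4 and 38.5 CPM under EVs, with a log2 fold change of -0.06 ± 0.37.

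The gene for interferon gamma, Ifng, was at the edge of detection, with 43 and 78 counts in the PBS tumors and 6 and 13 in the EV tumors. Both EV tumors were below both PBS tumors, and the log2 fold change of -2.46 ± 1.02 had an unadjusted p of 0.031 and an adjusted p of 1.00 by edgeR. Its interval ran from 1.17-fold to 25.9-fold lower.

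Antigen presentation genes had lower values in the same tumors. All 9 genes of MHC class I presentation were lower (49.6% of all genes), each with both EV tumors below both PBS tumors (23.3%) and with an unadjusted p under 0.05 (1.82%). Their median log2 fold change was -1.26, and it was -0.76 without EV tumor 1 and -1.90 without EV tumor 2. B2m, the light chain of every class I molecule, was at 1205 and 1328 CPM under PBS and at 473.5 and 888.1 CPM under EVs. Tap1, which pumps peptides into the endoplasmic reticulum, was at 173 and 184 CPM under PBS and at 37.7 and 83.4 CPM under EVs (2.95-fold lower, 95% interval 1.79 to 4.88, adjusted p = 0.598 by edgeR and 0.00751 by DESeq2). EV tumor 1 was the lower of the pair for all 9 genes (EV tumor 1 was the higher one at 51.1% of all genes). Tapbp was the other member that DESeq2 called lower. A 2-fold rise lay outside the interval for all 9, while a 2-fold fall lay inside it for each of them. Against the same PBS tumors the class I median was -0.75 with exoCDN2 and 0.64 with free CDN2. For loaded against unloaded EVs it was 0.15.

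The PBS controls themselves differed with the number of doses, and this bears on these lists. Between the PBS tumors of 2 doses and those of 1 dose, edgeR called 17 of the 19 gamma-induced genes lower (1.05% of all genes), 29 of the 40 type I genes lower and all 9 class I genes lower, with medians of -3.74, -2.04 and -3.05. Cxcl9 was at 3.53 and 2.12 CPM in the PBS tumors of 2 doses and Tap1 at 14.3 and 14.6 CPM. For 17 of the 19 gamma-induced genes and for all 9 class I genes, the EV tumors lay below both PBS tumors of 1 dose and above both PBS tumors of 2 doses, a place held by 3.16% of all genes. Set against all 4 PBS tumors together, the median of the gamma-induced genes became -0.55, that of the class I genes -0.45, and that of the type I genes changed sign to 0.24. The 2-dose tumors were also taken later in growth, so dose number and day cannot be told apart.

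Lymphocyte genes were mostly lower but were poorly bounded. Of 17 T cell markers 13 were lower and 4 higher, the median was -0.72, and 9 had both EV tumors below both PBS tumors, as 23.3% of all genes did. Cd3e, a chain of the T cell receptor complex, gave 44 and 76 counts under PBS and 12 and 25 under EVs, a log2 fold change of -1.49 ± 0.58. Cd8a, the coreceptor of cytotoxic T cells, was at 2.43 and 2.68 CPM under PBS and 0.524 and 1.36 CPM under EVs, while Cd4 was at 0.883 and 1.36 CPM under PBS and 0.589 and 1.31 CPM under EVs, where the groups overlapped. No T cell marker had an interval within 2-fold, and 8 of the 17 had one within 4-fold. Summed over the list, the T cell markers gave 34.2 and 39.6 CPM under PBS and 15.97 and 27.0 CPM under EVs. Their median against the same PBS tumors was -0.99 with exoCDN2 and 0.16 with free CDN2, and -0.26 for loaded against unloaded EVs.

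Most cytotoxic and Th1 genes also had lower values. None of the cytotoxic and 4 of the 9 Th1 genes had an interval within 4-fold. Of 8 cytotoxic granule genes 7 were lower (median -1.08), and of 9 Th1 genes 6 were lower (median -1.01). Against the same PBS tumors the medians with exoCDN2 were -1.26 (cytotoxic) and -0.14 (Th1), and with free CDN2 0.12 and 0.33. Loaded against unloaded EVs gave -0.0014 and 0.87. Prf1, the pore-forming protein perforin, was at 3.44 and 3.82 CPM under PBS and 0.633 and 1.82 CPM under EVs, which was 2.99-fold lower (95% interval 1.45 to 6.16). Tbx21, the transcription factor of Th1 cells, gave 19 and 39 counts under PBS and 6 and 11 under EVs. NK cell markers did not follow, with 4 of 6 higher and a median of 0.49 that became -0.90 without EV tumor 2, and Ncr1, a receptor found on NK cells, had between 0.0655 and 0.505 CPM in the 4 tumors. Of 8 B cell genes 4 had enough reads to be tested, with a median of -0.31.

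MHC class II genes, which dendritic cells, B cells and macrophages express, were lower for all 7 listed (median -0.95). Of the 7, 4 had both EV tumors below both PBS tumors (23.3% of all genes), and in the others the groups overlapped. H2-Aa, a chain of the class II molecule, was at 99.2 and 147.3 CPM under PBS, at 27.6 CPM in EV tumor 1 and at 99.7 CPM in EV tumor 2, inside the range of PBS. Ciita, the factor that switches class II genes on, was at 9.71 and 11.6 CPM under PBS and at 0.895 and 5.32 CPM under EVs. EV tumor 1 was the lower of the pair for all 7 genes, as it was for all 12 macrophage markers and all 17 T cell markers. The macrophage markers summed to 355.1 and 452.4 CPM under PBS, 189.3 CPM in EV tumor 1 and 420.4 CPM in EV tumor 2. Their part in the lower MHC values was not tested. The class II median against the same PBS tumors was -1.34 with exoCDN2 and 0.28 with free CDN2, and -0.32 for loaded against unloaded EVs.

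Among dendritic cell genes the EV tumors held some higher values. Ccl22 (chr8:94745590-94751699), a chemokine that mature dendritic cells and macrophages release to attract regulatory and Th2 cells, was at 1.41 and 1.76 CPM under PBS and at 4.604 and 6.74 CPM under EVs. The groups did not overlap, and it was 3.57-fold higher (95% interval 2.19 to 5.80, adjusted p = 0.381 by edgeR and 0.00088 by DESeq2). The exoCDN2 tumors lay in the same range, at 5.66 and 6.46 CPM. Fscn1, an actin-bundling protein of mature dendritic cells that other cells express too, was at 30.8 and 31.8 CPM under PBS and at 44.7 and 56.2 CPM under EVs. Cd209a, a lectin of monocyte-derived dendritic cells, gave 9 and 24 counts under PBS and 46 and 148 under EVs. Of the 12 dendritic cell markers 7 were higher and 5 lower, with a median of 0.73 that became -0.54 without EV tumor 2, and 4 had both EV tumors above both PBS tumors, as 20.5% of all genes did. At an unadjusted p under 0.05 by edgeR, 4 of the 12 were higher (1.37% of all genes) and 0 lower. Markers of cross-presenting dendritic cells did not separate the groups, since Xcr1 and Clec9a were each lowest in EV tumor 1 (6 counts) and highest, in CPM, in EV tumor 2 (1.26 CPM).

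Genes of monocytes and macrophages did not share a direction. Of the 12 macrophage markers 10 were lower and 2 higher, and Cd300e, an activating receptor of monocytes, was lower, with a log2 fold change of -3.69 ± 0.62 (adjusted p = 0.381 by edgeR and 0.00088 by DESeq2). Among the genes of smallest p on the higher side, Ccl24, an eosinophil-attracting chemokine, had 0.0662 and 0.16 CPM under PBS and 1.14 and 2.30 CPM under EVs (log2 fold change 3.87 ± 0.68, adjusted p = 0.381 by edgeR and 0.00751 by DESeq2). Mgl2, a lectin of macrophages and dermal dendritic cells, was at 0.795 and 1.08 CPM under PBS and at 2.29 and 11.5 CPM under EVs (adjusted p = 0.668 by edgeR and 0.0144 by DESeq2). Both genes were highest in EV tumor 2. Over 6 monocyte markers the median was 0.89 with 5 higher, and 0.015 without EV tumor 2, and F13a1, the clotting factor subunit made by such cells, was at 14.6 and 18.9 CPM under PBS and 20.3 and 65.1 CPM under EVs.

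Inflammatory cytokines and chemokines were a mixed list, with 11 of 15 higher, a median of 0.70 and 2 genes at an unadjusted p under 0.05, Ccl7 and Cxcl1. Ccl7, which draws monocytes, was at 8.83 and 9.29 CPM under PBS and at 19.1 and 15.4 CPM under EVs. Its log2 fold change was 0.93 ± 0.34, with an adjusted p of 1.00 by edgeR. Cxcl1, a neutrophil attractant, gave 5 and 6 counts under PBS and 71 and 36 under EVs. Il1b, a cytokine of activated myeloid cells, was at 0.927 and 1.22 CPM under PBS and at 4.58 and 2.09 CPM under EVs, and at 55.6 and 37.3 CPM with exoCDN2. Here a 2-fold rise lay outside the interval for only 2 of the 15 genes, whereas a 4-fold fall lay outside it for all 15.

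**Figure D4:**
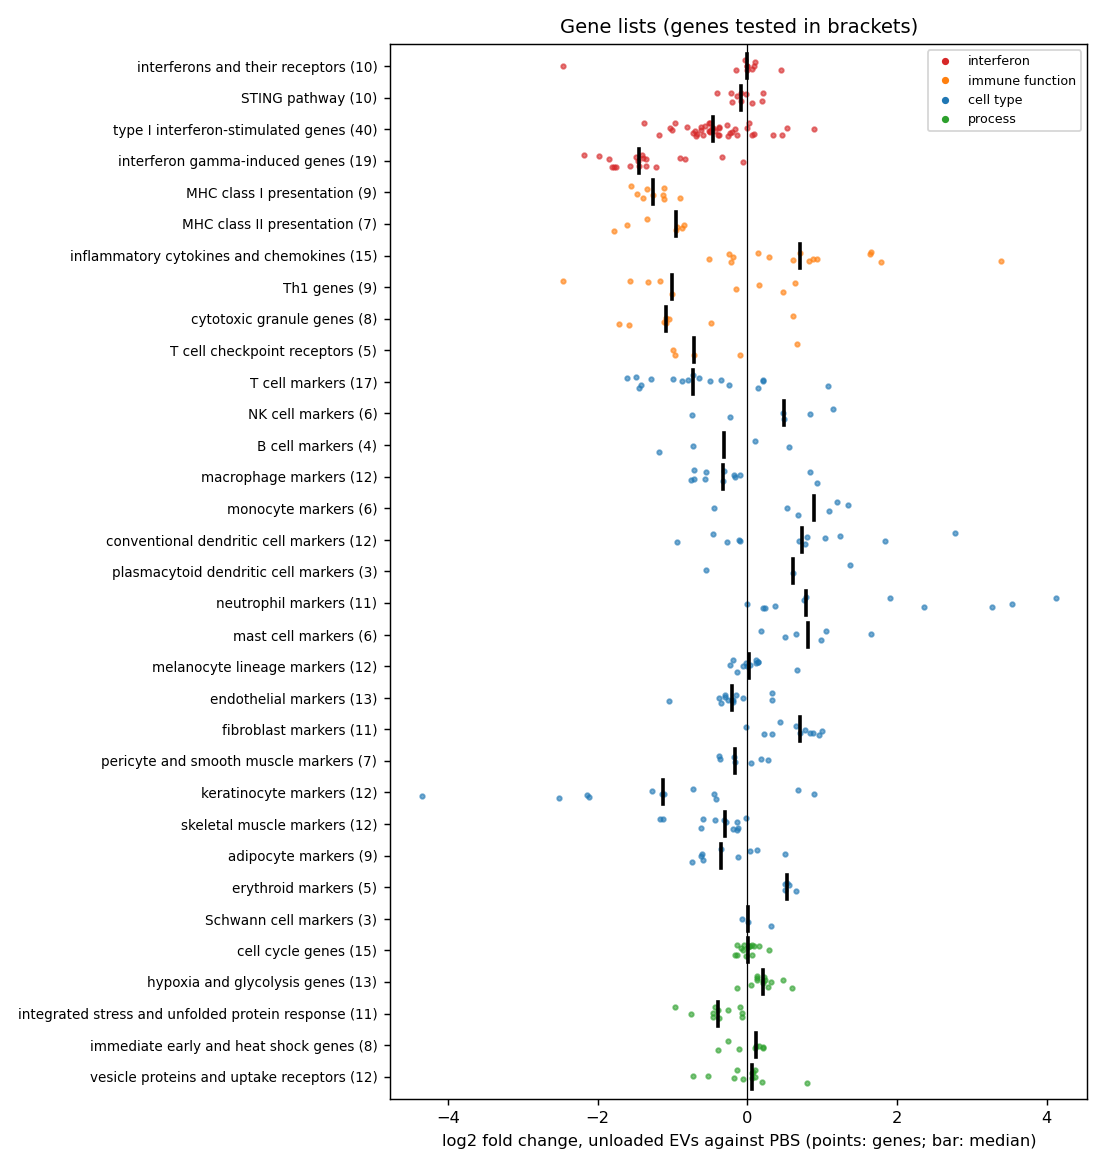
Log2 fold changes of unloaded EVs against PBS for every tested gene of 33 lists (points, coloured by kind of list), with a black bar at the median of each list. The medians run from -1.45 for interferon gamma-induced genes to 0.89 for monocyte markers, and those of melanocyte and cell cycle genes lie at 0.02 and 0.01.

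Neutrophil and mast cell markers were sparse. Of 11 neutrophil genes 10 were higher, with a median of 0.79, and 3 were higher at an unadjusted p under 0.05 (1.37% of all genes) and 0 lower. Their summed level was only 6.69 and 6.46 CPM under PBS and 13.4 and 8.05 CPM under EVs. For S100a8, an abundant neutrophil protein, the groups overlapped, at 1.32 and 1.26 CPM under PBS and 2.62 and 0.328 CPM under EVs. The 6 mast cell genes tested were all higher (median 0.81), and Cpa3, a mast cell protease, had 0.309 and 0.42 CPM under PBS and 0.545 and 0.908 CPM under EVs. For both lists a 2-fold rise lay outside the interval of 0 genes, so an influx of that size could have been missed.

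Stromal and skin genes separated the EV tumors from each other more than from PBS. Krt14, a keratin of the basal epidermis, was at 88.1 and 47.7 CPM under PBS, 30.5 CPM in EV tumor 1 and 0.101 CPM in EV tumor 2. The skeletal muscle actin Acta1 was at 27.2 and 38.1 CPM under PBS, 52.2 CPM in EV tumor 1 and 1.21 CPM in EV tumor 2. EV tumor 1 was the higher of the pair for all 12 keratinocyte, all 12 skeletal muscle, all 9 adipocyte and all 5 erythroid markers. EV tumor 2 was the higher for 10 of 11 fibroblast markers, and Col3a1, a collagen of loose connective tissue, was at 108.1 and 156.1 CPM under PBS, 139.2 CPM in EV tumor 1 and 344.6 CPM in EV tumor 2. The part of adjoining skin, muscle and fat in the immune gene values was not tested. Endothelial genes varied less, with 10 of 13 intervals within 2-fold and a median of -0.21, and Pecam1, a junction protein of vessels, was at 29.5 and 32.8 CPM under PBS and 30.8 and 25.2 CPM under EVs.

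**Figure D5:**
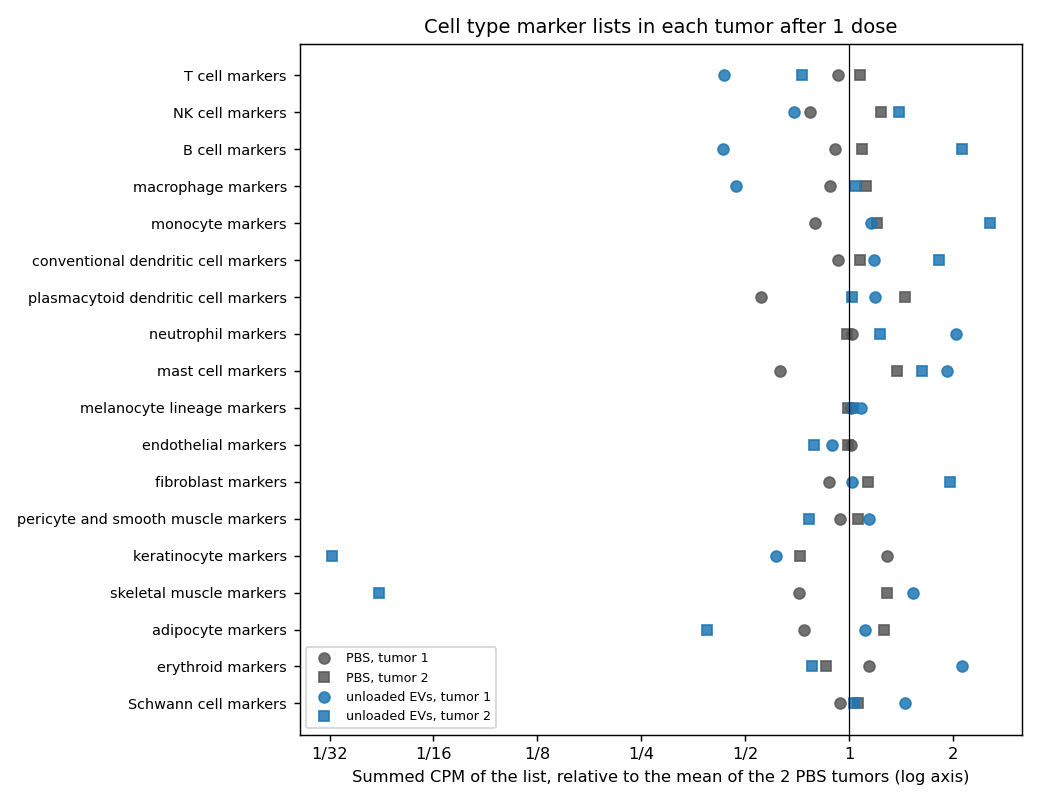
Summed CPM of 18 lists of cell type markers in each tumor, relative to the mean of the 2 PBS tumors (log axis), with PBS in grey and unloaded EVs in blue, circles for tumor 1 and squares for tumor 2. EV tumor 2 lies far to the left for keratinocyte, skeletal muscle and adipocyte markers, and EV tumor 1 for T cell and macrophage markers.

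Tumor cell genes were closely bounded. Of 12 melanocyte lineage markers 7 were higher and 5 lower, the median was 0.02, and the intervals of 10 lay within 2-fold. Mlana, a melanosome protein, was at 630.9 and 680.7 CPM under PBS and at 675.6 and 623.6 CPM under EVs, so that a change over 1.21-fold in either direction lay outside its interval. Cell cycle genes had a median of 0.01, with 14 of 15 intervals within 2-fold. The exception was Mki67, a protein of dividing nuclei, at 228.6 and 195.6 CPM under PBS and 285.4 and 188 CPM under EVs. Genes of hypoxia and glycolysis were higher for 12 of 13 with a small median of 0.21 that became -0.12 without EV tumor 2, and EV tumor 2 was the higher of its pair for all 13.

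Genes of the integrated stress and unfolded protein response were lower for all 11 listed, with a median of -0.40, and 8 of them had both EV tumors below both PBS tumors (23.3% of all genes). Chac1, a glutathione-degrading target of ATF4, was at 29.1 and 26.9 CPM under PBS and 12.7 and 15.9 CPM under EVs (1.95-fold lower, 95% interval 1.40 to 2.72, adjusted p = 0.687 by edgeR and 0.0368 by DESeq2). Asns, asparagine synthetase, was at 158.9 and 161.2 CPM under PBS and 112.7 and 123.7 CPM under EVs, a log2 fold change of -0.44 ± 0.11 (adjusted p = 0.718 by edgeR and 0.0318 by DESeq2). Both had an adjusted p of DESeq2 under 0.05 but a ratio under 2, so neither was called. DESeq2 fitted to the 4 tumors alone gave 2.12e-06 for Chac1 and 8.62e-05 for Asns.

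Genes of the STING pathway showed little movement, and the mouse genes of vesicle proteins and uptake receptors were less closely bounded. The proteins of the injected EVs, which came from human cells, were not measured. All 10 pathway genes had intervals within 2-fold, with a median of -0.09. In 6 of the 10 both EV tumors lay below both PBS tumors (23.3% of all genes), and in 2 both lay above (20.5%). Tmem173, the gene for STING, was at 55.2 and 56.5 CPM under PBS and at 44.9 and 51.5 CPM under EVs, and its interval allowed at most a 1.47-fold lower and a 1.09-fold higher level. Irf3, the transcription factor that STING activates, lay between 36.6 and 37.2 CPM in the 4 tumors. Mouse Ptgfrn, the counterpart of the protein that the EVs carried, was at 2.60 and 2.88 CPM under PBS and 2.71 and 3.18 CPM under EVs. The tetraspanin Cd63, a marker of vesicles, was at 1276 and 1308 CPM under PBS and at 1338 and 1613 CPM under EVs. Among 12 genes of vesicle proteins and uptake receptors the median was 0.06, and log2 fold changes ran from -0.73 to 0.80. Intervals lay within 2-fold for 6 of the 12 and within 4-fold for 10. Stab1, a scavenger receptor of macrophages and vessels, was the 1 member with an unadjusted p under 0.05. It was at 26.0 and 26.2 CPM under PBS and 15.8 and 20.4 CPM under EVs.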

How the data were processed

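RNA-seq of whole tumors was analysed from 1 table. Per the study's methods, the authors aligned reads to GRCm38 with OSA in OmicSoft ArraySuite and estimated counts with RSEM on Ensembl R88 gene models, and the deposited values are these expected counts, not normalized. The share of values that were not whole lay between 8.75% and 12.7% per tumor, and totals ran from 21608895 to 65983630. Symbols and positions came from GENCODE M21, and promoters from RefSeq GRCm38.p6.

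After rounding, edgeR 4.0.16 (R 4.3.3) was used with filterByExpr (minimum count 10, total 15) and TMM. The quasi-likelihood fit gave each of 8 groups (16 tumors) its own mean, which left 8 residual degrees of freedom. The other 2 tumors, whose labels give no amount of CDN2, were left out. P-values were adjusted over 16927 genes and rest on the spread within all 8 groups, not within the 2 groups compared alone. For a single gene, an exact two-sided permutation of 2 against 2 tumors cannot go under a p of 0.333, so none is given. A call needed a ratio over 2 besides an adjusted p under 0.05, as in the study. The 95% intervals use the coefficient, its standard error and the t quantile of the same model. CPM are rounded counts scaled to library totals after TMM. The procedure was tested on simulated data.

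Genes were named by a rule: lead genes of each cell type or response, the 6 higher and 6 lower non-overlapping genes of smallest p, and up to 4 members per list. Xcr1, Clec9a, Slfn5, Oasl1, Mlana, B2m, Ifnar1, Ifngr1 and Irf3 fall partly outside it and were chosen after their values were seen, as were the genes called by DESeq2. Certain genes of the lists are not reported here by name. Members and lists were chosen with earlier results of these data known, so lists are described by counts and medians. Alternatives were DESeq2 1.42.0, RLE factors, no filter, other sets of tumors, pooled PBS tumors, other thresholds, a replicate block and leaving out each tumor.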

Additional observations from a re-analysis of the deposited data

How the results depend on the processing

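The count of 0 genes called held in edgeR with RLE factors, with all 18 tumors, with only the 4 tumors compared, with pooled PBS tumors, at an adjusted p under 0.25, and without each tumor in turn, where the lone tumor is assumed to vary like the others. It became 227 with no filter on low counts, 34 with DESeq2 and 69 with DESeq2 on the 4 tumors, and, in settings chosen after seeing the data, 0 to 86 with DESeq2 leaving out 1 tumor (48 without EV tumor 1, 86 without EV tumor 2, with 8 and 25 among the 34) and 11 with DESeq2 and pooled PBS tumors. The cause was not tested. Genes with an interval within 2-fold numbered 8973 to 11524 over the edgeR and DESeq2 settings. Same-numbered tumors share only a number in the labels. Their deviations correlated at 0.129, and edgeR with that number as a block again called 0 genes, while Rsad2 became -0.037 and S100a8 -0.020. Rsad2 was -0.0069 without the filter and -0.00054 with 18 tumors. With PBS pooled over doses, medians (log2) were 0.24 for type I, -0.55 for gamma-induced, -0.45 for MHC class I, 1.205 for inflammatory, -0.22 for Th1, -0.30 for cytotoxic, 0.14 for checkpoint, -0.016 for T cell, 1.65 for neutrophil, 0.13 for mast cell, -0.057 for melanocyte and -0.12 for cell cycle genes, and single genes turned to 0.20 (Cd4), 0.46 (Clec9a), 0.73 (Cxcl10), -0.048 (Dct), 0.31 (Isg15), 0.19 (Usp18) and 0.40 (Xcr1). The B cell median was 0.85 with DESeq2, 0.75 without the filter, 0.11 on the 4 tumors and 0.85 with DESeq2 on them, and that of plasmacytoid dendritic cells 0.041, 0.023, 0.033 and 0.032. DESeq2 on the 4 tumors gave 0.065 for interferons and their receptors and 1.23 for neutrophils. Leaving out each tumor in turn, list medians ran from -0.11 to -0.037 (STING pathway), -0.54 to -0.36 (type I), -1.80 to -1.12 (gamma-induced), -1.90 to -0.76 (MHC class I), -2.17 to -0.31 (MHC class II), 0.10 to 1.00 (inflammatory), -1.04 to -0.036 (Th1), -1.71 to -0.61 (cytotoxic), -1.31 to -0.11 (checkpoint), -1.37 to -0.21 (T cell), -0.90 to 1.01 (NK), -0.88 to -0.024 (macrophage), 0.015 to 1.12 (monocyte), -0.54 to 1.10 (dendritic), 0.14 to 1.35 (plasmacytoid), 0.73 to 1.43 (neutrophil), 0.48 to 1.28 (mast cell), -0.021 to 0.093 (melanocyte), 0.074 to 1.00 (fibroblast), -0.48 to 0.086 (pericyte), -7.67 to -0.16 (keratinocyte), -5.61 to 0.66 (muscle), -3.88 to 0.54 (adipocyte), -0.34 to 1.10 (erythroid), -0.15 to 0.37 (Schwann), -0.076 to 0.030 (cell cycle), -0.12 to 0.53 (hypoxia), -0.51 to -0.18 (stress response), -0.17 to 0.28 (immediate early) and -0.077 to 0.056 (vesicle). Genes whose direction turned ran from -4.75 to 0.67 (Acta1), -0.93 to 0.22 (Cd4), -2.48 to 0.76 (Clec9a), -0.95 to 0.48 (Cxcl10), -0.95 to 1.00 (Ifit1), -0.72 to 1.04 (Ifnb1), -0.18 to 0.43 (Mki67), -0.075 to 0.041 (Mlana), -0.55 to 1.04 (Mx1), -1.21 to 2.03 (Ncr1), -0.024 to 1.43 (Oasl1), -0.022 to 0.21 (Ptgfrn), -0.86 to 0.53 (Rsad2), -1.97 to 1.02 (S100a8) and -2.65 to 0.59 (Xcr1). With 2 tumors a group, 2.62% of genes under 1 CPM had an interval within 2-fold, so low genes such as Ifnb1 are weakly bounded.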

Other observations

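Some of the genes with the smallest p-values were in none of the lists, and none of those given here was called by edgeR with its filter on low counts. Cd300e, the monocyte receptor with a log2 fold change of -3.69, was at 1.77 and 1.94 CPM under PBS and at 0.109 and 0.177 CPM under EVs. Klrc1, which encodes the NK cell receptor NKG2A, had a log2 fold change of -2.65 (adjusted p = 0.438 by edgeR and 0.00751 by DESeq2). Batf2, a transcription factor of interferon-activated macrophages, was at -1.97 (0.428 by edgeR and 0.00088 by DESeq2), and the receptor tyrosine kinase Axl, which clears dying cells, at -1.50 (0.687 and 0.0152). Cdh15, a cadherin of muscle precursors, was at 0.883 and 0.799 CPM under PBS and at 0.0655 and 0.151 CPM under EVs (adjusted p = 0.381 by edgeR and 0.0116 by DESeq2). Parp10, an ADP-ribosyltransferase, was at 63.2 and 58.1 CPM under PBS and at 28.9 and 36.1 CPM under EVs (adjusted p = 0.428 by edgeR and 0.00288 by DESeq2). On the higher side, Tcaf2, a partner of a TRP channel, was at 3.67 and 3.32 CPM under PBS and at 6.48 and 6.79 CPM under EVs, and A230001M10Rik was at 0.177 and 0.20 CPM under PBS and at 0.829 and 0.53 CPM under EVs, each with an adjusted p of 0.718 by edgeR. By DESeq2 the adjusted p was 0.0469 for Tcaf2 and 0.49 for A230001M10Rik. Parp10 and Tcaf2 had ratios under 2 and so were not called by DESeq2. In each of these 5 genes with values by tumor the groups did not overlap, which the rule that named them required.

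Besides Ccl22, Ccl24 and Mgl2, DESeq2 called 3 genes higher, which were Car4 (carbonic anhydrase 4, log2 fold change 3.47), Il13ra2 (a receptor of interleukin 13, 3.73) and Ccl11 (an eosinophil-attracting chemokine, 2.01), with adjusted p of 0.0172, 0.0368 and 0.0488. Their adjusted p by edgeR was 0.718, 0.819 and 0.811. With the 1-dose and 2-dose PBS tumors pooled, a setting chosen after seeing the data, DESeq2 called 11 genes, of which 4 were among its 34, namely Ccl22, Ccl24, Car4 and Ccl11. These genes and those of the preceding paragraph were chosen after their values were seen, except Cd300e, Cdh15, Parp10, Tcaf2 and A230001M10Rik.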
